A study of Saccharomyces cerevisiae with 27 samples.

Results

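The comparison described here is of RNA in budding yeast (Saccharomyces cerevisiae). It sets a strain lacking the deacetylases Hst3 and Hst4 and the exonuclease Rrp6 against a wild-type (WT) strain. Its members are all genes with a value in the deposited RNA-seq table, 5297 in number, in the 2 libraries of the triple depletion strain and the 2 libraries of WT, which are 4 of the 27 samples of the series. Of these genes 5294 were above 0 in at least 2 of the 8 RNA libraries and were tested. The triple depletion strain, called hst34rrp6, is labelled hst4-delta HST3-FRB RRP6-FRB, so that HST4 is deleted while Hst3 and Rrp6 carry the FRB tag. The 4 libraries of the strains labelled RRP6-FRB (rrp6) and hst4-delta HST3-FRB (hst34) were used where a result needed its part in hst34rrp6 to be placed. These are called parent strains because each carries part of the hst34rrp6 genotype. The labels do not give their lineage. WT is labelled as an anchor-away strain. All 4 groups, WT included, grew in YPD at 30 °C and received rapamycin for 3 h, so none of them is an untreated culture. The labels do not say whether replicates were separate cultures, and the p-values measure the spread between these libraries, which may be technical. For values as deposited, that spread was a trend over all genes and all 4 groups, not the gene's own spread.

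In the anchor-away method rapamycin joins an FRB-tagged nuclear protein to a partner that leaves the nucleus, which strips the nucleus of the protein while its gene stays expressed. Hst3 and Hst4 are sirtuins that remove the acetyl group from lysine 56 of histone H3, a mark of newly made nucleosomes. Rrp6 is a nuclease of the nuclear exosome. It trims the 3′ ends of small nucleolar RNAs and destroys short-lived transcripts that the Nrd1-Nab3-Sen1 complex has terminated. Small nucleolar RNAs (snoRNAs) guide the modification of ribosomal RNA, and Nrd1-Nab3-Sen1 ends the transcription of most of those that have their own promoter. The same complex also ends transcription early inside some protein-coding genes, NRD1 itself among them, and thereby holds down their mRNA.

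Each value is a normalised signal per kb of the gene's interval, scaled by the authors to an S. pombe spike-in, per the title of the deposited table. The values were whole reads times a constant for each library and per kb, which gave 6674046 and 5487526 reads in genes for hst34rrp6, 7759866 and 7413852 for rrp6, 7643274 and 9976525 for hst34, and 10183415 and 6514631 for WT. A median gene held 419 and 368 reads in hst34rrp6 and 501 and 325 reads in WT. Fold changes are given as log2 of signal plus 58.8, hst34rrp6 over WT, with standard errors from limma. Because of the pseudocount the change of genes with a signal near or under 58.8 is understated. The standard error ran from 0.09 in the lowest genes to 0.22, and it was 0.20 to 0.22 for most genes named. A gene was called at a Benjamini-Hochberg adjusted p under 0.05 over all genes tested. Values are as deposited unless said to be centred, which means that the log2 values of each library had that library's median subtracted. Centring moved every fold change down by about 0.13, the difference between the groups' median log2 levels.

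The labels were checked first on the targeted genes. HST4 had signals of 3.34 and 0 in hst34rrp6 libraries, against 92.5 and 93.3 in WT libraries. The deleted gene was thus at or near 0 in both hst34rrp6 libraries and well above that in both WT libraries, and it fell by 1.33 ± 0.12 (adjusted p = 1.31e-23), a value that the pseudocount compresses. HST3, whose protein is only moved, had 349 and 402 in hst34rrp6 and 237 and 321 in WT, a fold change of 0.37 ± 0.22 that did not pass (adjusted p = 0.256). RRP6 had 347 and 423 in hst34rrp6, against 666 and 741 in WT, and fell by 0.78 ± 0.22 (adjusted p = 0.0046). The rrp6 libraries, which carry the same RRP6-FRB allele, had 353 and 415. All 4 libraries with the tagged allele thus lay under both WT libraries. The hst34 libraries, which lack the tag on RRP6, had 674 and 430, the second close to the tagged libraries, and hst34rrp6 did not differ from hst34 past the threshold (−0.44, adjusted p = 0.161). RNA levels do not check the depletion of Hst3 and Rrp6, which moves the proteins.

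As deposited, 843 genes were called, of which 541 were higher in hst34rrp6 (10.2% of genes tested) and 302 were lower (5.70%). Changes past 1 on the log2 scale were found in 89 genes called higher and 63 called lower. With each library centred the count was 2051, of which 803 were higher (15.2%) and 1248 were lower (23.6%), so the scaling turned the balance from more rises to more falls. Both scalings called 471 genes higher (8.90%) and 302 lower (5.70%), and no gene was called in opposite directions. In 841 of the 843 genes the hst34rrp6 libraries did not overlap the WT libraries, while without regard to calls 39.3% of all genes lay wholly higher and 19.9% wholly lower. The number called as deposited was 373 without hst34rrp6 replicate 2, 488 without hst34rrp6 replicate 1, 459 without WT replicate 1, 418 without WT replicate 2, 1429 without hst34 replicate 1 and 1436 without hst34 replicate 2. Centred, it was 1338 without hst34rrp6 replicate 1.

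The direction of change went with the level of the gene. Among the quintile of genes with the lowest mean level 26.9% were called higher and 3.59% lower, and the shares in the highest quintile were 2.08% and 14.3%. The median fold change was 0.25, 0.20, 0.14, 0.03 and −0.18 from the lowest to the highest quintile. Centred values kept this order, with medians of 0.12, 0.07, 0.01, −0.10 and −0.31, and 54.2% of the highest quintile were then called lower. The 20 highest genes took 18.1% and 17.2% of the signal in hst34rrp6, against 22.2% in both WT libraries. In rrp6 these genes took 19.4% and 19.2%, and in hst34 21.0% and 23.9%. Ribosomal protein genes held 25.1% and 24.2% of the signal in hst34rrp6 and 24.3% and 24.8% in WT. The median log2 level was 8.66 and 8.85 in hst34rrp6 libraries, against 8.54 and 8.70 in WT libraries (difference 0.13, exact permutation p = 0.667). The log2 summed signal averaged 22.64 in hst34rrp6 and 22.90 in WT (difference −0.26, exact two-sided permutation p = 0.333). In bulk cultures fewer cells that express a gene and less RNA per cell cannot be told apart. With 2 libraries a group the smallest p this test can give is 0.333. By length, 2.38% of the quintile of genes with the longest intervals were called lower, while the share ran from 5.62% to 7.04% in the other quintiles.

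**Figure D1:**
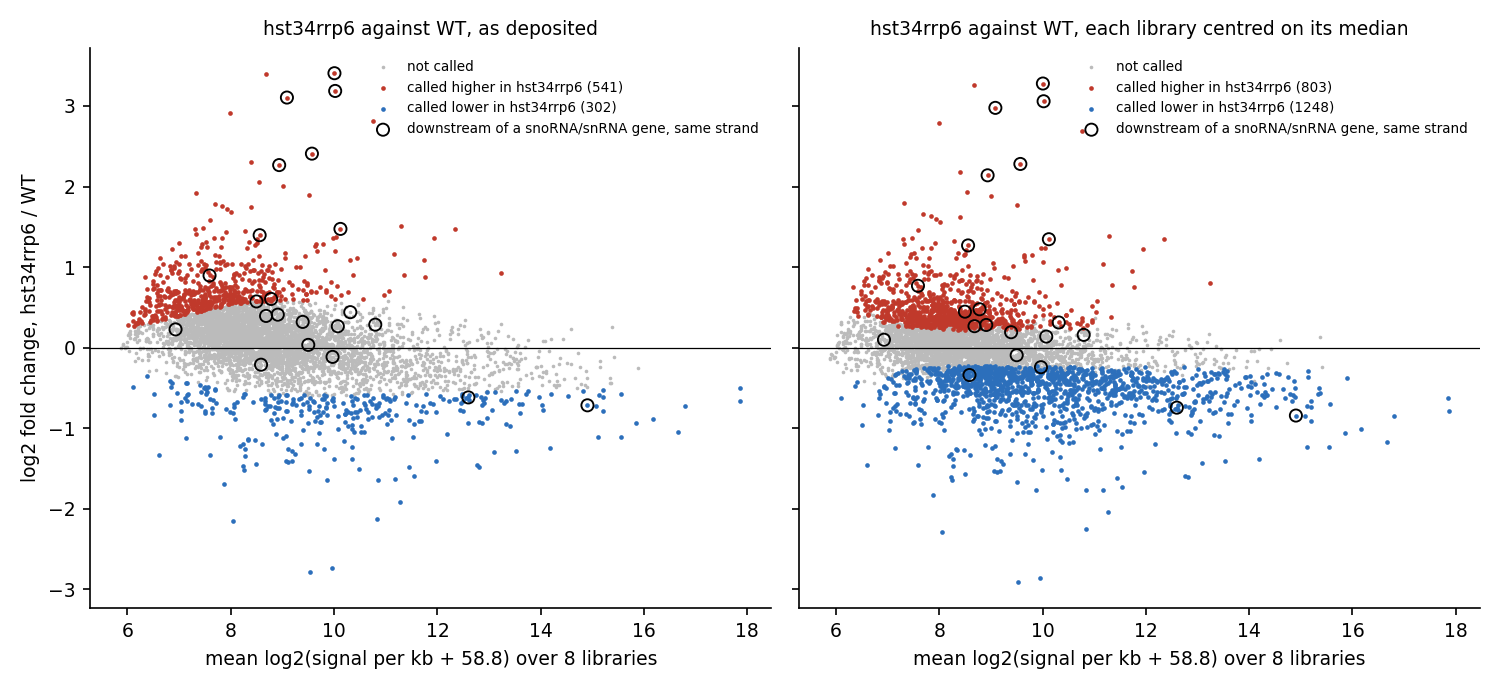
Fold change of each tested gene (log2, hst34rrp6 over WT) against its mean log2 level over the 8 libraries, as deposited on the left and with each library centred on the right. Red points are the 541 (deposited) or 803 (centred) genes called higher in hst34rrp6, blue points the 302 or 1248 called lower, and rings mark the 22 genes that lie downstream of a snoRNA or small nuclear RNA gene on its strand. Rises lie mostly among low genes and falls among high genes.

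**Figure D2:**
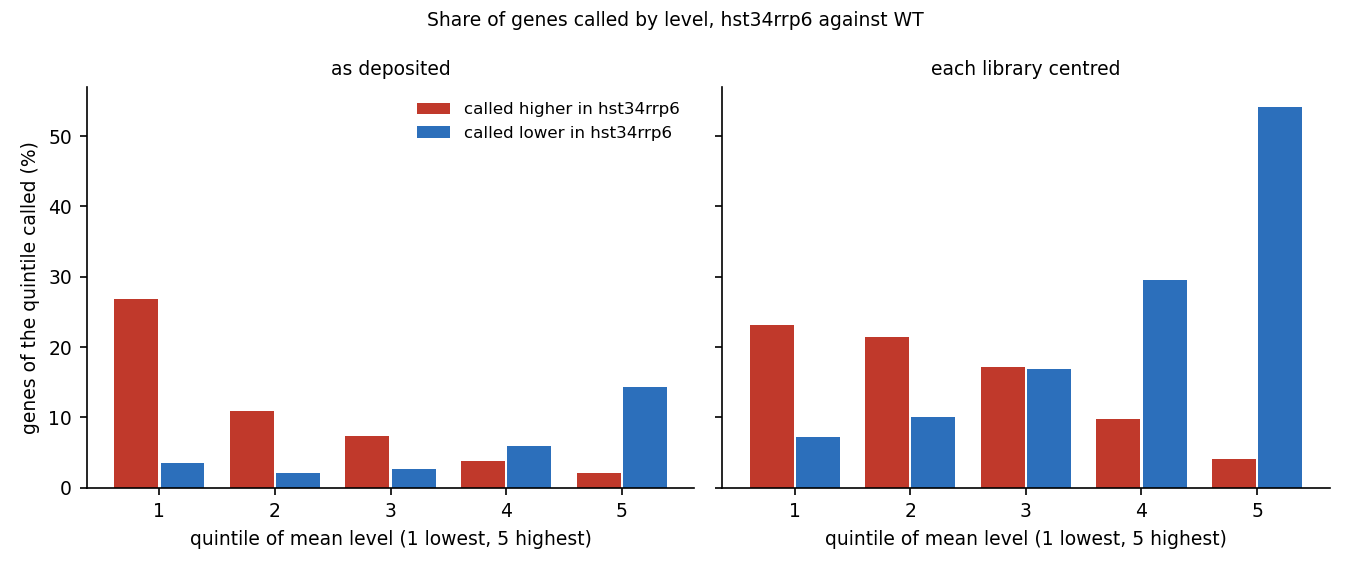
Share of genes called higher (red) and lower (blue) in hst34rrp6 against WT in each quintile of mean level, from lowest to highest, as deposited and centred. As deposited the share called higher goes from 26.9% in the lowest quintile to 2.08% in the highest, and the share called lower reaches 14.3% in the highest.

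The genes with the largest rises included several that lie just downstream of a snoRNA gene and on its strand. FLX1, which encodes a mitochondrial FAD transporter (YIL134W, sacCer3 chromosome IX, 97361 to 98433), starts 115 bp beyond SNR68. FLX1 had signals of 3129 and 3631 in hst34rrp6 libraries, against 220 and 317 in WT libraries. Both hst34rrp6 libraries were far above both WT libraries, and FLX1 rose by 3.41 ± 0.22 (adjusted p = 1.44e-49), the largest rise of any gene tested. Its interval shares 20 bp with that of RPL16A.

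RGT1 encodes a repressor of glucose transporter genes (YKL038W, chromosome XI, 364940 to 369060), and its interval starts 64 bp beyond SNR69. It had 2766 and 3199 in hst34rrp6 and 267 and 282 in WT, and rose by 3.19 ± 0.22 (adjusted p = 1.73e-43). CTO1 (YCR015C, chromosome III, 141094 to 142206) lies 158 bp beyond SNR33. Its signals were 1374 and 1641 in hst34rrp6, against 122 and 123 in WT, a rise of 3.10 ± 0.22 (adjusted p = 8.76e-42). HEM4, encoding uroporphyrinogen III synthase of the heme pathway, lies 109 bp beyond SNR5, and USE1, encoding a SNARE protein of Golgi-to-endoplasmic-reticulum traffic, lies 244 bp beyond SNR82. HEM4 had 1649 and 1841 in hst34rrp6 and 250 and 314 in WT (2.41 ± 0.22), and USE1 had 931 and 1177 in hst34rrp6 and 158 and 185 in WT (2.27 ± 0.22). The interval of HEM4 shares 100 bp with that of RFM1. In none of these genes did the hst34rrp6 and WT libraries overlap, which was a condition set when the genes were chosen.

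The pattern was then counted over every annotated snoRNA and small nuclear RNA gene. Of 82 such genes in the RefSeq gene table (assembly R64, the assembly that sacCer3 names), 67 had a tested gene within 500 bp, and 91 genes were such neighbours. A gene's distance was measured from its deposited interval, and a gene near 2 small RNA genes can enter 2 positions. Of 22 genes downstream on the strand of the small RNA gene, 10 rose (45.5%, beside 10.2% of all genes tested) and 2 fell, with a median of 0.43 beside 0.11 for all genes tested. Centred, 13 rose and 2 fell, with a median of 0.30 beside −0.02. The other members that rose were TRS31 (163 bp beyond SNR13; 1.47), the tRNA splicing endonuclease gene SEN2 (198 bp beyond SNR79; 1.40), SMC5 of the Smc5/6 complex (320 bp beyond SNR50; 0.90), BUD22 (0.60) and the Mediator gene GAL11 (0.57). Both that fell were ribosomal protein genes, RPS14A (−0.72 ± 0.19) and RPL7A (−0.62 ± 0.21).

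Within 250 bp limma called 9 of 16 such genes higher, and within 1000 bp it called 13 of 34 higher and 4 lower. Leaving out any 1 library left 8 to 11 of the 22 called higher as deposited, and 9 to 13 centred. Each interval has a single value, and the sources used here do not give the strand setting of the counting. RNA of the gene itself and RNA that runs in from the small RNA gene upstream cannot be told apart, and their parts in these rises were not tested.

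Of 26 genes upstream on the strand of the small RNA gene, 5 rose and 1 fell (median 0.21). MIN3 led these with 340 and 385 in hst34rrp6, against 53.5 and 78.0 in WT (1.76 ± 0.19), though its interval overlaps those of YMR181C and RGM1 by up to 1016 bp. Of 16 divergent genes 1 rose, the splicing factor gene AAR2 (1.14), and 1 fell (median 0.11). Of 29 genes convergent with the small RNA gene, which end facing it from the other strand, 10 fell (34.5%, beside 5.70% of all genes) and 2 rose, with a median of −0.20 as deposited and −0.32 centred. The ubiquitin-binding autophagy gene CUE5 fell most among these, with 126 and 158 in hst34rrp6 and 390 and 517 in WT (adjusted p = 8.55e-09). Its interval meets SNR62 at its end. EFM3, a methyltransferase gene that ends at SNR3 (−1.12 ± 0.16), the DNA damage tolerance gene MMS2 (−0.94 ± 0.22) and CMC4 (−0.90 ± 0.15) followed. The 2 that rose were ODC2, a mitochondrial oxodicarboxylate carrier gene (1.19 ± 0.22), and SSU72, a phosphatase gene of the termination machinery (1.04 ± 0.22).

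As deposited the convergent count was 5 without hst34rrp6 replicate 1, 4 without hst34rrp6 replicate 2, 6 without either rrp6 library or WT replicate 1, and 3 without WT replicate 2. In 2 genes the small RNA gene lies inside the interval. YOL097W-A, with SNR58 on the other strand, rose by 1.45 ± 0.21, and LIN1, with SNR71 on the other strand, fell by 0.83 ± 0.12.

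The downstream genes were also read in the parent strains. In rrp6 against WT 8 of the 22 rose and 2 fell, with a median of 0.37, where 4.53% of all genes were called higher and 6.63% lower. In hst34 against WT, where 0.661% of all genes were called higher and 1.34% lower, limma called 0 of the 22 higher and 1 lower (1 and 1 at an unadjusted p under 0.05; median −0.01). These comparisons share the WT libraries with that of hst34rrp6. In hst34rrp6 against rrp6, where 1.00% of all genes were called higher, limma called 0 of the 22 in either direction, at the adjusted p or at an unadjusted p under 0.05 (median 0.08). In hst34rrp6 against hst34, where 13.5% of all genes were called higher, 11 rose and 2 fell (median 0.62). FLX1 had 2951 and 3132 in rrp6 and 318 and 224 in hst34, and RGT1 had 2834 and 3124 in rrp6 and 352 and 292 in hst34. For comparison, 112 genes lay within 500 bp downstream of a tRNA gene on its strand, a set chosen after the snoRNA result was seen. Of these 18 rose (16.1%) and 4 fell, with a median of 0.18. The largest rise in the tRNA set was that of CTO1 (3.10), which is also one of the 22, so the sets share members.

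**Figure D3:**
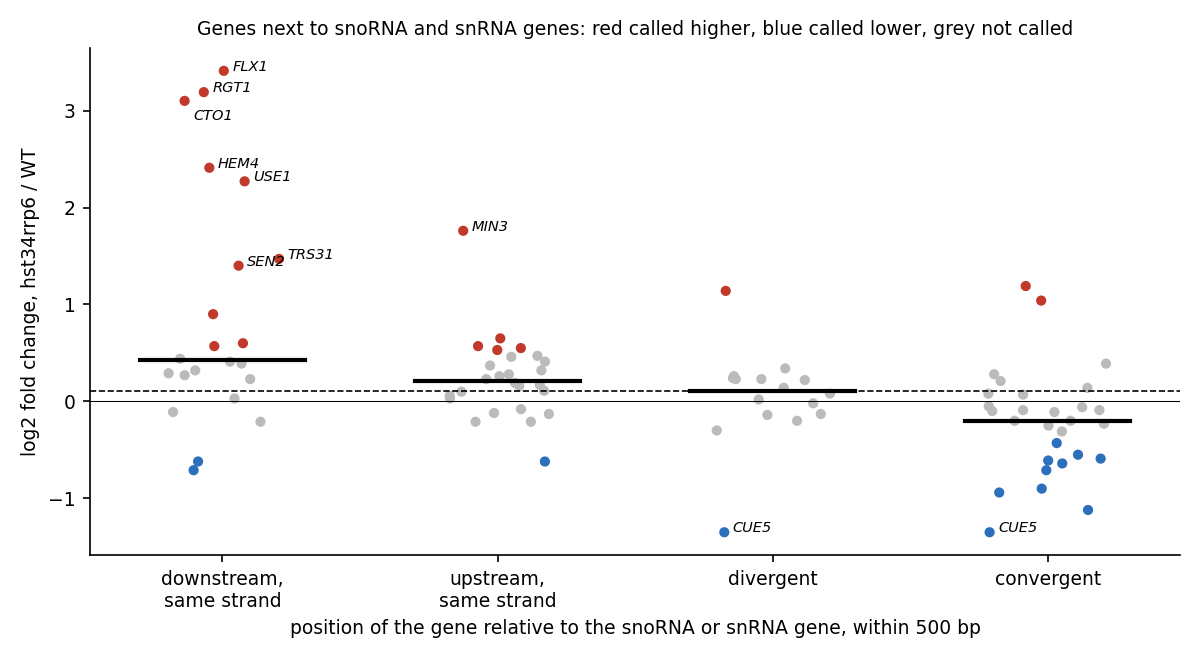
Fold change (log2, hst34rrp6 over WT, as deposited) of genes within 500 bp of a snoRNA or small nuclear RNA gene, by position relative to it. Red points were called higher, blue points lower and grey points neither, solid bars are medians (0.43 downstream, 0.21 upstream, 0.11 divergent, −0.20 convergent), and the dashed line is the median of all genes tested, 0.11.

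The counts of the gene lists are given beside the shares of all genes tested that were called in the same comparison. In hst34rrp6 against WT these shares were 10.2% higher and 5.70% lower as deposited, and 15.2% higher and 23.6% lower centred. In rrp6 against WT they were 4.53% higher and 6.63% lower, and in hst34 against WT 0.661% and 1.34%. Of 14 genes for the Nrd1-Nab3-Sen1 complex and its partner termination factors, limma called 7 higher and 0 lower (8 and 0 at an unadjusted p under 0.05; 10.2% of all genes were higher), with a median of 0.57 (centred 0.45, with 9 higher and 1 lower). NRD1, which encodes the RNA-binding subunit and limits its own transcript (YNL251C, chromosome XIV, 172455 to 174599), had signals of 3876 and 4933 in hst34rrp6, against 562 and 579 in WT. Both hst34rrp6 libraries stood above both WT libraries, and NRD1 rose by 2.82 ± 0.22 (adjusted p = 2.53e-34). REF2, SSU72 and PTI1, whose proteins belong to the cleavage and polyadenylation factor, rose by 1.14, 1.04 and 0.61. PCF11, encoding a cleavage factor that binds the polymerase tail, rose by 0.85, RTT103 by 0.75, and NAB3, which encodes the partner of Nrd1, by 0.71. Without hst34rrp6 replicate 2 the count was 3, and without WT replicate 2 it was 4. In rrp6 against WT 4 of the 14 rose (4.53% of all genes), and in hst34 against WT 0 passed, by the adjusted p or an unadjusted p under 0.05.

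Of 15 tested genes in a list of mixed kinds, held down by early termination, by transcription across or against the gene, or by decay of their own mRNA in the nucleus, 8 rose and 2 fell (10.2% and 5.70% of all genes), with a median of 0.65 (centred 0.52, with 8 higher and 3 lower). NRD1 and PCF11 stand in both this list and that of the termination factors, and are counted among the rises of each. URA8, encoding a CTP synthase, had 1583 and 1716 in hst34rrp6, against 495 and 735 in WT, and rose by 1.36 ± 0.22 (adjusted p = 4.07e-08). NAB2, encoding a poly(A)-binding protein that acts on its own mRNA, had 1633 and 1790 in hst34rrp6 and 590 and 662 in WT (1.37 ± 0.22). HRP1, for a cleavage factor subunit, rose by 1.12, and SER3, a serine biosynthesis gene repressed by transcription across its promoter, by 1.09. PHO84, which encodes the high-affinity phosphate transporter, fell by 1.28 ± 0.20, and GPH1, for glycogen phosphorylase, fell by 0.75 ± 0.18. In rrp6 against WT 7 of the 15 rose and 2 fell (4.53% and 6.63% of all genes). In hst34 against WT limma called 0, with 1 higher and 3 lower at an unadjusted p under 0.05.

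Of 13 genes for exosome subunits and cofactors, only RRP6 passed as deposited (median 0.18), and of 5 genes of the TRAMP complex, which adds short poly(A) tails to exosome substrates, AIR2 rose (0.92 ± 0.21; median 0.38). Centred, 3 TRAMP genes rose. AIR2 had 359 and 398 in hst34rrp6 and 178 and 164 in WT. Of 33 genes for 5′ to 3′ mRNA decay and translational repression limma called 0 as deposited (3 higher and 0 lower at an unadjusted p under 0.05, median 0.15), and 3 rose and 6 fell centred.

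Of 136 cytosolic ribosomal protein genes 5 rose (3.68%, beside 10.2% of all genes) and 16 fell (11.8%, beside 5.70%), with a median of −0.20. With libraries centred the numbers were 5 and 75 (median −0.32), where 15.2% and 23.6% of all genes were called. In the quintile of genes with the highest level, 2.08% were higher and 14.3% lower as deposited, and 4.15% and 54.2% centred. Whether the list differed from other genes of its level was not tested. RPL18B had signals of 3870 and 4377 in hst34rrp6 and 1323 and 1496 in WT, and rose by 1.51 ± 0.22 (adjusted p = 3.65e-10). The libraries did not overlap. The copies RPS14B and RPS14A moved in opposite directions. RPS14B had 8470 and 8738 in hst34rrp6 and 2630 and 3561 in WT (1.47 ± 0.21), while RPS14A had 23350 and 23594 in hst34rrp6 and 34197 and 43484 in WT (−0.72 ± 0.19).

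RPL9B (1.36 ± 0.22), RPL8A (1.16) and RPS9A (1.08) were the other risers. Reads of near-identical copies can be split between them in ways the deposited values do not show. The lead among the falls was RPP1A, a stalk protein gene, with 26436 and 30131 in hst34rrp6 and 39046 and 60779 in WT (−0.79 ± 0.18). The rises numbered 5 when any 1 library was left out. The falls numbered 0 without hst34rrp6 replicate 1, 2 without hst34rrp6 replicate 2, 0 without WT replicate 2, 8 without either rrp6 library and 36 without either hst34 library.

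The other large rises were in genes of several kinds. REC104, a meiotic recombination gene normally silent in growing cells, had 1248 and 1291 in hst34rrp6, against 56.1 and 80.8 in WT (3.39 ± 0.22, adjusted p = 8.94e-51). Its interval shares 116 bp with LIN1, which holds SNR71, and SNR71 lies on the strand of REC104. GRE1, a hydrophilin gene induced by desiccation and salt, had 630 and 625 in hst34rrp6 and 20.3 and 46.7 in WT (2.91 ± 0.20). Of the genes without a standard name, YBR076C-A had 1098 and 1209 in hst34rrp6 and 241 and 243 in WT (2.01 ± 0.22). YPL245W had 1265 and 1387 in hst34rrp6 and 242 and 399 in WT (1.90 ± 0.22), and its interval shares 220 bp with that of HUT1. YPL216W had 314 and 358 in hst34rrp6 and 53.0 and 58.6 in WT (1.78 ± 0.19). YLR349W had 214 and 286 in hst34rrp6 and 15.5 and 29.2 in WT (1.92 ± 0.17), but it shares 1012 bp with the interval of DIC1. Overlap with another interval was found for 6 of the 15 largest rises and 0 of the 15 largest falls, beside 35.3% of all genes tested.

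**Figure D4:**
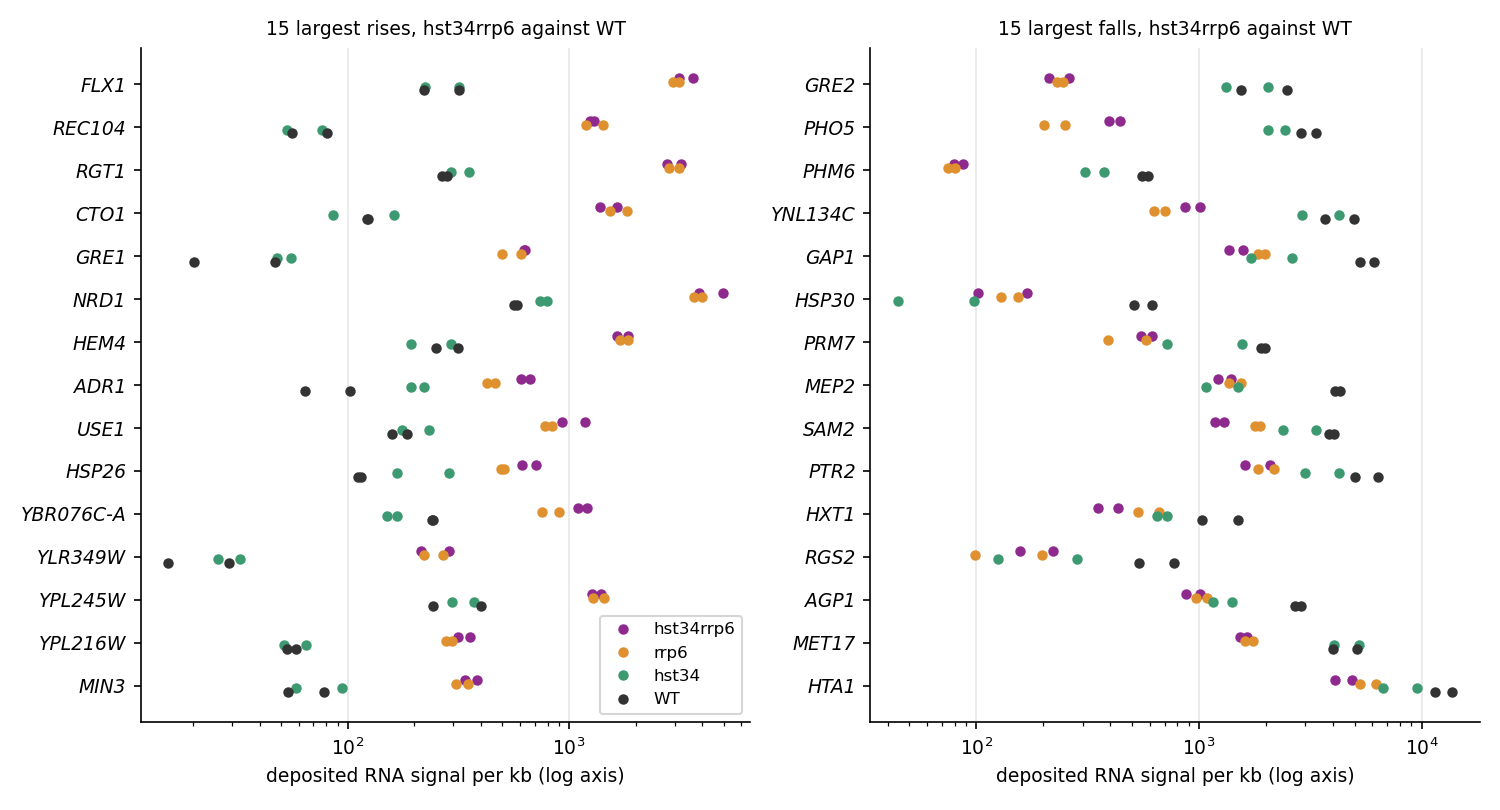
Deposited signal per kb (log axis) of the 15 genes with the largest rise and the 15 with the largest fall in hst34rrp6 against WT. Each point is 1 library, in hst34rrp6 (purple), rrp6 (orange), hst34 (green) and WT (black). Only genes whose hst34rrp6 and WT libraries did not overlap were eligible, so the gap between these groups follows from the choice of genes.

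Of 53 meiosis and sporulation genes listed, 31 could be tested, and limma called 9 higher and 0 lower (12 and 1 at an unadjusted p under 0.05; median 0.16, centred 0.03, with 6 higher and 1 lower). The share called higher was 29.0%, beside 10.2% of all genes and 26.9% of the quintile with the lowest level. Whether the list differed from other genes of low level was not tested. After REC104, the sporulation kinase gene SPS1 had 204 and 222 in hst34rrp6 and 45.4 and 32.7 in WT (1.48 ± 0.16). HED1, a meiosis-specific gene, had 40.0 and 72.9 in hst34rrp6 and 3.62 and 3.18 in WT (0.88 ± 0.11). MSH5, DMC1 and ZIP1 rose by 0.87, 0.58 and 0.51. Without the lowest 25% of genes a single member of this list was called. Among 25 genes that serve growth on non-fermentable carbon, 8 rose and 1 fell (median 0.14, centred 0.01). ADR1, encoding an activator of such genes, had 606 and 667 in hst34rrp6, against 102 and 64.0 in WT, and rose by 2.31 ± 0.21 (adjusted p = 1.23e-24). The isocitrate dehydrogenase gene IDP2 (1.14 ± 0.15), the peroxisomal catalase gene CTA1 (1.06 ± 0.14) and GUT2 of glycerol use (0.92) also rose, and the aldehyde dehydrogenase gene ALD4 fell (−0.74 ± 0.22). Without hst34rrp6 replicate 2 the count of rises was 4, and it was 5 without WT replicate 2 and 2 without the lowest 25% of genes.

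General stress genes moved both ways. Of 40, 12 rose and 5 fell, with a median of 0.03 that became −0.10 with libraries centred, when 10 rose and 13 fell. Of all genes 10.2% rose and 5.70% fell as deposited, and 15.2% and 23.6% centred. DDR2, induced by many stresses, had 611 and 905 in hst34rrp6 and 308 and 315 in WT (1.12 ± 0.22, adjusted p = 1.20e-05). RTN2 rose by 1.06, while the DNA damage and heat responsive gene DDR48 fell by 0.78 and UGP1, of glycogen synthesis, by 0.68. The rises numbered 5 without hst34rrp6 replicate 2, 7 without WT replicate 2 and 8 without WT replicate 1, and the falls 0 without hst34rrp6 replicate 1 and 1 to 7 without any other single library. Of 31 chaperone genes 6 rose and 2 fell (median 0.18, centred 0.05, with 10 higher and 8 lower), and the falls were near the share of all genes on both scalings (5.70%, centred 23.6%). The small heat shock protein gene HSP26 had 615 and 705 in hst34rrp6 and 111 and 115 in WT (2.06 ± 0.22). HSP82, encoding an Hsp90, had 964 and 1047 in hst34rrp6 and 578 and 517 in WT (0.81 ± 0.22), but 1638 and 1723 in hst34, and hst34rrp6 lay under hst34 (−0.71 ± 0.22, adjusted p = 0.0133). The membrane protein gene HSP30 (−1.70 ± 0.20) and the methylglyoxalase gene HSP31 (−1.41 ± 0.22) fell.

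The largest fall was in GRE2, a methylglyoxal reductase gene (YOL151W, chromosome XV, 43674 to 44706). GRE2 had 212 and 260 in hst34rrp6, against 1546 and 2491 in WT, and fell by 2.78 ± 0.22 (adjusted p = 3.13e-33). It stood in a list of 26 tested oxidoreductase genes and genes linked to the oxidant-sensing activator Yap1, of which 12 fell and 2 rose (median −0.46, centred −0.58, with 19 lower and 3 higher). Of all genes 5.70% were lower as deposited and 23.6% centred. The list was chosen with earlier results of these data known, so its falls may partly follow from the choice. YNL134C, for an alcohol dehydrogenase-like protein, had 865 and 1012 in hst34rrp6 and 3670 and 4986 in WT (−2.12 ± 0.22). YML131W (−1.40 ± 0.22) and OYE2, an NADPH dehydrogenase gene (−1.10), fell as well. MCR1, a mitochondrial cytochrome b5 reductase gene, rose (1.28 ± 0.22), though its interval overlaps those of NNR2 and DBR1 by up to 1428 bp. The falls numbered 7 without either hst34rrp6 library and 5 without WT replicate 2.

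Of 19 tested genes of the phosphate regulon, which Pho4 turns on when phosphate is short, 13 fell (5.70% of all genes did) and 1 rose (median −0.71, centred −0.84, with 16 lower and 2 higher). The acid phosphatase gene PHO5 had 393 and 442 in hst34rrp6, against 2868 and 3339 in WT (−2.73 ± 0.22, adjusted p = 7.02e-32). PHM6 had 79.4 and 86.6 in hst34rrp6 and 555 and 590 in WT (−2.15 ± 0.20). GIT1, a glycerophosphoinositol permease gene, had 140 and 165 in hst34rrp6 and 547 and 507 in WT (−1.47 ± 0.21). PHO84 had 7935 and 7683 in hst34rrp6, against 18647 and 19399 in WT. The member that rose, CTF19, is a kinetochore gene whose interval overlaps those of VTC3 and IRC15 by up to 1348 bp. The falls numbered 7 without hst34rrp6 replicate 1 and 8 without either WT library. In rrp6 against WT 13 of the 19 fell (6.63% of all genes), with a median of −0.72, and in hst34 against WT 3 fell (1.34% of all genes), with a median of −0.32.

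Genes under nitrogen catabolite repression serve the uptake and use of poor nitrogen sources. Of 25 tested genes limma called 16 lower and 0 higher (18 and 0 at an unadjusted p under 0.05; 5.70% of all genes were lower), with a median of −0.72 (centred −0.85, with 18 lower and 0 higher). The general amino acid permease gene GAP1 had 1369 and 1576 in hst34rrp6, against 5314 and 6128 in WT (−1.92 ± 0.22, adjusted p = 4.34e-16). The ammonium permease gene MEP2 had 1221 and 1394 in hst34rrp6 and 4087 and 4288 in WT (−1.64 ± 0.22). The peptide transporter gene PTR2 had 1602 and 2087 in hst34rrp6 and 5018 and 6371 in WT (−1.60 ± 0.22). AGP1, a broad amino acid permease gene, had 878 and 1015 in hst34rrp6 and 2711 and 2861 in WT (−1.50 ± 0.22). The falls numbered 9 without hst34rrp6 replicate 1 and 9 without WT replicate 2. In rrp6 against WT 16 of these genes fell (median −0.90; 6.63% of all genes), and in hst34 against WT 10 fell (median −0.54; 1.34% of all genes).

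Of 24 genes of glycolysis and fermentation 13 fell and 1 rose (median −0.63, centred −0.76, with 20 lower and 1 higher), where 5.70% of all genes fell as deposited and 23.6% centred. In the quintile of genes with the highest level, where ENO1, TDH2 and PGK1 lie, 14.3% fell as deposited and 54.2% centred. Whether the list differed from other genes of like level was not tested. The enolase gene ENO1 had 4768 and 5331 in hst34rrp6, against 12402 and 15712 in WT (−1.46 ± 0.21, adjusted p = 2.52e-10). TDH2, for glyceraldehyde-3-phosphate dehydrogenase, fell by 1.25 ± 0.20. PGK1, for phosphoglycerate kinase, had 23757 and 22189 in hst34rrp6 and 45172 and 54488 in WT (−1.11 ± 0.19). The pyruvate decarboxylase gene PDC5 rose by 0.82 ± 0.20. The falls numbered 18 when either hst34 library was left out, and at least 9 when any other library was. Among 14 hexose transporter and glucose sensing genes, HXT1 (353 and 433 in hst34rrp6, 1504 and 1029 in WT) and HXT3 fell, by 1.54 ± 0.22 and 0.69 ± 0.21, and RGT1 rose. In the TCA cycle 2 of 19 genes rose and 1 fell, near the 10.2% and 5.70% of all genes. Centred, 2 rose and 11 fell, where 15.2% and 23.6% of all genes did. SDH3, for a succinate dehydrogenase subunit, had 750 and 920 in hst34rrp6 and 1692 and 2436 in WT (−1.23 ± 0.22). Of 36 respiratory chain and ATP synthase genes 4 fell and 1 rose (median −0.23), and 20 fell with libraries centred. QCR10 fell most (−0.86 ± 0.22).

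Of 28 sulfur and methionine genes 11 fell and 3 rose (median −0.18, centred −0.31, with 14 lower and 1 higher). SAM2, for S-adenosylmethionine synthetase, had 1174 and 1292 in hst34rrp6, against 3856 and 4034 in WT (−1.63 ± 0.22, adjusted p = 1.22e-11). MET17 had 1521 and 1645 in hst34rrp6 and 3991 and 5141 in WT (−1.48 ± 0.22), and MET6, for methionine synthase, had 2229 and 2506 in hst34rrp6 and 5948 and 6851 in WT (−1.41 ± 0.22). Of the 3 that rose, SUL2 and MET28 were not called with libraries centred, and the regulator gene MET32 (0.71 ± 0.12) shares 740 bp of its interval with BTT1. Of 62 genes for the synthesis of other amino acids 4 rose and 5 fell (centred 7 and 28), among them the glutamate dehydrogenase gene GDH1 (−1.07 ± 0.21) and the aromatic aminotransferase gene ARO9 (−1.01 ± 0.22). HIS3 and TRP1, which are also common selectable markers, rose by 0.71 ± 0.21 and 0.76 ± 0.18; whether a marker copy adds to them was not tested.

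Of 26 genes of the M/G1 daughter-cell and Sic1 cluster 11 fell and 1 rose (median −0.35, centred −0.48, with 18 lower and 2 higher). DSE4, a daughter-specific glucanase gene, had 963 and 1185 in hst34rrp6, against 2334 and 2191 in WT (−1.04 ± 0.22). The chitinase gene CTS1 had 4869 and 5881 in hst34rrp6 and 10674 and 9965 in WT (−0.94 ± 0.21). Without hst34rrp6 replicate 1 only 2 members of this list fell, and without WT replicate 1 the number was 5. Of 33 cell wall genes 10 fell and 3 rose (median −0.32, centred −0.45, with 21 lower and 4 higher), beside 5.70% of all genes lower as deposited and 23.6% centred. The falls were led by the yapsin gene YPS3 (−1.20 ± 0.22), whose interval of 1728 bp lies wholly within that of YLR120W-A, and by the glucanosyltransferase gene GAS1 (−0.97 ± 0.20). These falls numbered 2 without hst34rrp6 replicate 1, 5 without hst34rrp6 replicate 2, 5 without WT replicate 1 and 4 without WT replicate 2. Of 34 G1/S genes 1 rose, the S-phase cyclin gene CLB6 (0.52 ± 0.14), and of 21 G2/M genes 1 rose, BUD4 (0.54 ± 0.20).

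Of 11 histone genes tested, 9 had a fold change below 0. limma called 3 lower and 0 higher (4 and 1 at an unadjusted p under 0.05; median −0.36), and centred 9 fell and 1 rose. Of all genes 5.70% were lower as deposited and 23.6% centred. In the quintile with the highest level, where HTA1, HHT2 and HHF2 lie, these shares were 14.3% and 54.2%. Whether histone genes differed from other genes of like level was not tested. HTA1, for histone H2A, had 4065 and 4888 in hst34rrp6, against 11442 and 13703 in WT (−1.48 ± 0.21, adjusted p = 1.33e-10). HHT2, for histone H3, fell by 0.63 ± 0.21 and HHF2, for histone H4, by 0.55 ± 0.21. Of 25 DNA damage response genes 5 rose and 1 fell (median 0.34, centred 0.21, with 9 higher and 3 lower). DIN7, a mitochondrial nuclease gene induced by damage, had 182 and 223 in hst34rrp6 and 43.8 and 57.5 in WT (1.25 ± 0.17), and PLM2 rose by 0.65 ± 0.16. The rises numbered 1 without hst34rrp6 replicate 2, 2 without WT replicate 1, 3 without WT replicate 2 or either rrp6 library, and 10 without either hst34 library. Of 14 sirtuin and H3 lysine 56 acetylation genes only the deleted HST4 passed as deposited (median 0.13). Centred, the sirtuin gene HST2 (−0.71, adjusted p = 0.000191) and the histone chaperone gene VPS75 (−0.37, adjusted p = 0.00866) were also lower.

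**Figure D5:**
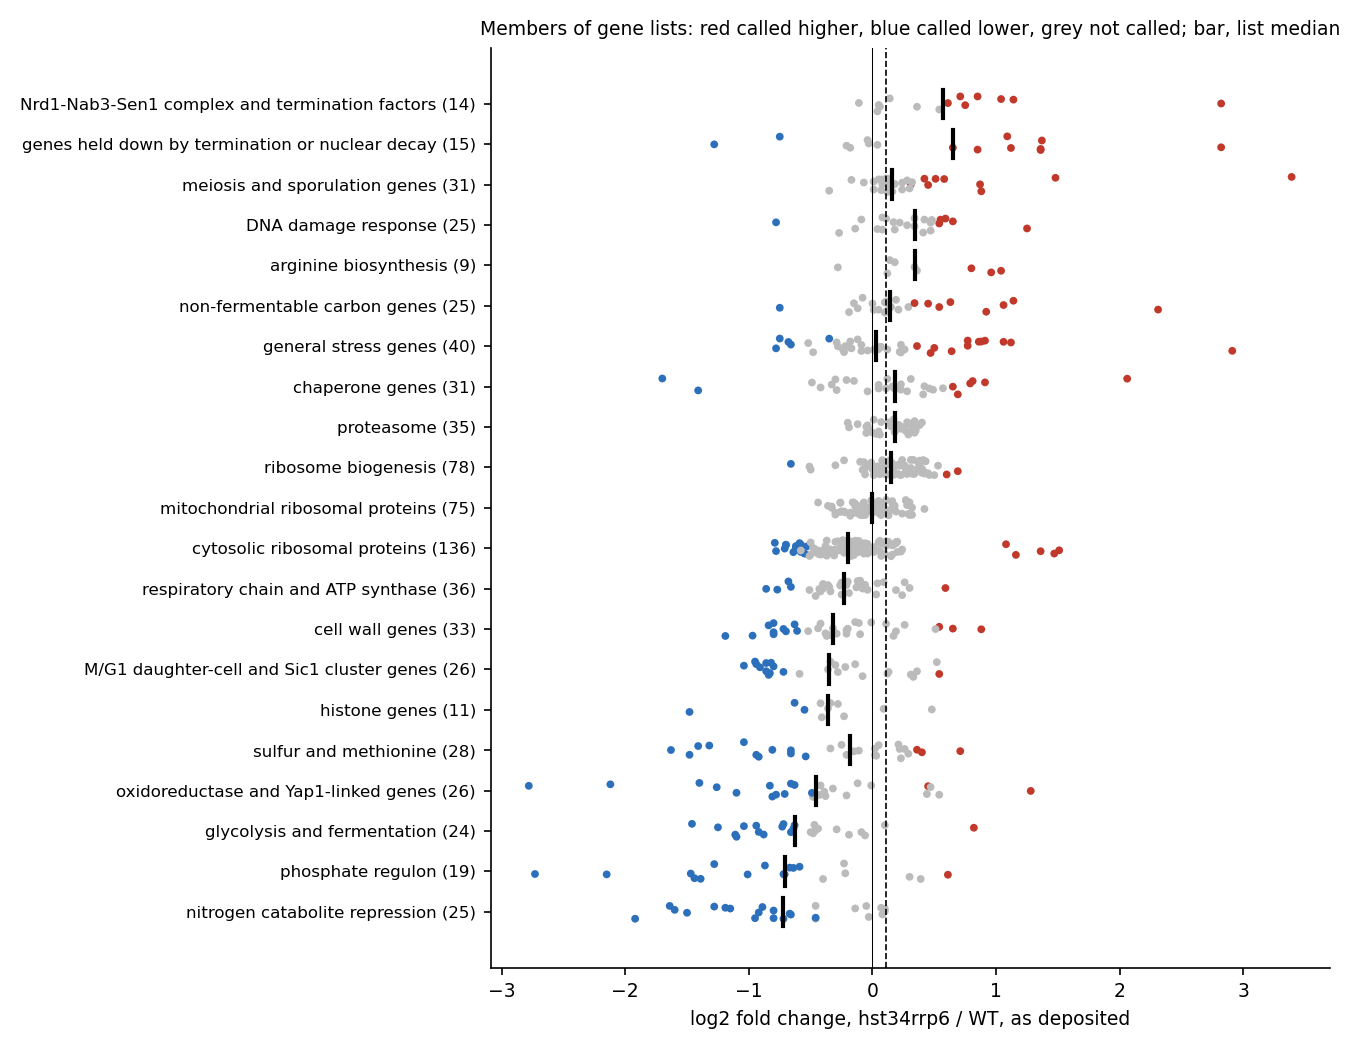
Fold changes (log2, hst34rrp6 over WT, as deposited) of the tested members of 21 gene lists, with the number tested in brackets. Red points were called higher, blue points lower and grey points neither, bars are list medians, and the dashed line is the median of all genes tested, 0.11. Nitrogen, phosphate and glycolysis genes have the lowest medians shown (−0.72, −0.71 and −0.63), and the termination factors and the genes held down by termination or nuclear decay the highest (0.57 and 0.65). NRD1 and PCF11 stand in both of the lists with the highest medians.

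The remaining lists held few calls as deposited. As deposited limma called 0 of 35 proteasome genes (0 at an unadjusted p under 0.05, median 0.18), 0 of 75 mitochondrial ribosomal protein genes (2 at an unadjusted p under 0.05, 1 each way) and 0 of 21 aminoacyl-tRNA synthetase genes (1 lower at an unadjusted p under 0.05, median −0.08). Centred, the proteasome had 1 higher and 2 lower, the mitochondrial ribosome 18 of 75 lower, near the 23.6% of all genes, and the synthetases 10 of 21 lower. Of 78 ribosome biogenesis genes 2 rose and 1 fell (median 0.15), the snoRNP methyltransferase gene NOP1 being the one that fell (−0.66 ± 0.21). The RNA polymerase I and III list had 2 of 31 higher, the initiation factor genes RRN3 (0.97 ± 0.22) and RRN7 (0.64 ± 0.21). Of 9 arginine genes 3 rose, of 32 autophagy genes 6 rose, and of 28 iron regulon genes 6 rose and 1 fell, where 10.2% of all genes rose and 5.70% fell. Centred, 3 arginine genes rose and 1 fell, 6 autophagy genes rose and 4 fell, and 6 iron genes rose and 9 fell, so the balance of the iron list turned. ATG10, for a conjugating enzyme of autophagy, had 117 and 148 in hst34rrp6 and 32.3 and 35.4 in WT (1.04 ± 0.15). TIS11, which encodes a protein that destabilises mRNAs when iron is short, had 185 and 200 in hst34rrp6 and 46.4 and 58.2 in WT (1.18 ± 0.17), with 1156 bp of its interval shared with SLX4. The autophagy rises numbered 2 without hst34rrp6 replicate 2 or WT replicate 2.

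Among 18 NAD genes 2 rose and 3 fell, and centred 2 rose and 13 fell. BNA6, for quinolinate phosphoribosyltransferase, had 306 and 358 in hst34rrp6 and 596 and 1004 in WT (−1.10 ± 0.22). Of 28 ergosterol genes 2 rose and 2 fell, of 13 retrograde and lactate genes 2 rose, and of 11 zinc and copper genes 1 fell, the zinc transporter gene ZRT1 (−0.70 ± 0.22). The ergosterol falls were 7.14% of the list, beside 5.70% of all genes. Centred, 2 ergosterol genes rose and 13 fell, 3 retrograde and lactate genes rose and 3 fell, and 5 zinc and copper genes fell. Of 23 multidrug and polyamine transporter genes 6 fell and 1 rose, with ATR1 lowest (516 and 612 in hst34rrp6, 1333 and 1533 in WT; −1.26 ± 0.22). Of 26 pheromone and mating genes 5 rose and 2 fell (10.2% and 5.70% of all genes), and centred the balance turned, with 2 higher and 4 lower. MFA1, for the a-factor precursor, had 12405 and 15928 in hst34rrp6, against 7831 and 6913 in WT (0.93 ± 0.20). PRM7 fell (551 and 613 in hst34rrp6, 1988 and 1894 in WT; −1.64 ± 0.22), and the pheromone protease gene BAR1 had 0 and 1.97 in hst34rrp6, 1.29 and 1.48 in rrp6, 15.9 and 16.2 in hst34, and 24.8 and 25.7 in WT. BAR1 was thus near 0 in all 4 libraries with RRP6-FRB and above that in the other 4. The labels do not mention BAR1, and whether the strains differ beyond the named alleles was not tested.

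The triple strain differed from rrp6 in few genes. In hst34rrp6 against rrp6 53 genes were called higher (1.00%) and 2 lower (0.0378%), and centred the numbers were 49 (0.926%) and 14 (0.264%). Against hst34, 716 were higher (13.5%) and 179 lower (3.38%). Centred, 760 were higher and 1308 lower, so the scaling turned the balance of this comparison. The interaction term asks whether losing Hst3 and Hst4 has a different effect when Rrp6 is depleted. As deposited it was called higher in 61 genes (1.15%) and lower in 2 (0.0378%), with a median of 0.17 over all genes. Centred, it was called higher in 83 and lower in 16, with a median of −0.03. Of the genes described above, the arginine genes ARG1 and ARG3 were among those above rrp6. ARG1, for argininosuccinate synthetase, had 581 and 650 in hst34rrp6 and 206 and 188 in rrp6, a difference of 1.40 ± 0.22 (adjusted p = 1.53e-07), while WT had 225 and 365. ARG3 had 150 and 163 in hst34rrp6 and 55.5 and 57.9 in rrp6 (0.90 ± 0.16, adjusted p = 7.13e-06). The kynurenine pathway genes BNA2 (0.99 ± 0.16, adjusted p = 8.77e-07) and BNA4 (0.79 ± 0.21, adjusted p = 0.022), the cell wall gene PIR3 (1.14 ± 0.20, adjusted p = 4.83e-06) and DDR2 (0.93 ± 0.22, adjusted p = 0.00427) were also above rrp6. These calls were also made with libraries centred. BNA2 had 134 and 124 in hst34rrp6, 29.9 and 42.5 in rrp6, 201 and 149 in hst34, and 61.1 and 86.4 in WT, so the libraries of both strains depleted of Hst3 and Hst4 were above those of rrp6 and WT. TDA6 had 211 and 319 in hst34rrp6, 75.7 and 144 in rrp6, 125 and 55.8 in hst34, and 409 and 595 in WT. It was above both parents (0.95 ± 0.20 against rrp6, adjusted p = 0.000537; 1.14 ± 0.20 against hst34, adjusted p = 6.83e-07) and below WT (−0.79 ± 0.20).

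As deposited, 12 genes were higher in hst34rrp6 than in WT, rrp6 and hst34 alike, and limma called 0 lower than all of them. With libraries centred the numbers were 6 higher and 12 lower, and 3 genes were found on both scalings, ARO5, EST1 and MFA1. ARO5 (YGL117W) had 497 and 537 in hst34rrp6, 161 and 182 in rrp6, 378 and 230 in hst34, and 162 and 333 in WT. It was higher than WT by 0.97 ± 0.21 (adjusted p = 0.000129) and than rrp6 by 1.32 ± 0.21 (adjusted p = 5.21e-07). EST1, for a telomerase subunit, had 143 and 156 in hst34rrp6, 75.6 and 78.0 in rrp6, 93.1 and 59.6 in hst34, and 60.0 and 80.2 in WT (0.70 ± 0.16 against WT). MFA1 had 8027 and 9009 in rrp6 and 11330 and 8015 in hst34, and exceeded them by 0.72 ± 0.20 (adjusted p = 0.0432) and 0.56 ± 0.20 (adjusted p = 0.0409). The others among the 10 with the largest rises against WT were of low level. YOR186W had 77.1 and 76.8 in hst34rrp6 and 11.4 and 15.7 in WT, HEF3, for a translation elongation factor paralog, had 88.0 and 95.8 in hst34rrp6 and 33.4 and 33.1 in WT, and LEE1 had 63.7 and 89.7 in hst34rrp6 and 22.7 and 23.7 in WT. YCL048W-A (0.93), IRC18 (0.74), HAB1 (0.67) and the meiotic gene HED1 completed them, and IRC18 lost its call against WT with libraries centred (adjusted p = 0.0595).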

How the data were processed

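Total RNA with ribosomal RNA removed was sequenced with paired-end reads of 75 bp, after S. pombe cells had been added as a spike-in at 1 part to 6, per the labels. The authors deposited 1 signal per gene and library, normalised to the spike-in and to gene length, per the title of the file. Bowtie2, TopHat2, SAMtools, HTSeq 0.9.1 and the build sacCer3 are named in the submitters' processing notes. The sources used here do not give the strand setting. In every library 100% of values were whole reads times a constant per kb, within 0.01 of a read, and intervals were taken from the deposited DRIP table. Depth was 5487526 to 10183415 reads in genes. Rows of 3 lines were emptied in the table provided, and 5286 of 5297 genes matched the RefSeq table.

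limma 3.58.1 with a trend was fitted in R 4.3.3 to log2(signal + 58.8) of all 8 RNA libraries in 1 model of group means, for the 5294 genes above 0 in at least 2 libraries, with Benjamini-Hochberg adjustment over all of them. The fit was checked on simulated data. As deposited, the standard error followed the mean level alone. The prior degrees of freedom, which set how far a gene's variance is drawn to the trend, were infinite as deposited and 7.53 centred. For FLX1 the adjusted p of the limma fit was 1.44e-49 as deposited and 9.49e-10 centred. The same fit was run with each library centred on its median. Single values per library were compared by an exact two-sided permutation test. Lists are described by counts and medians.

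Members, lists and tests were chosen with earlier results of these data known. Named genes were the 15 largest rises and 15 largest falls called on both scalings without overlap, the targeted genes, up to 3 called genes each way in each of 40 lists, the 5 largest changes each way in the top quintile of level, up to 10 called neighbours of small RNA genes, and up to 10 genes called alike against WT and both parent strains. Further called members of a list or neighbour class, and RPL7A and AAR2, were named after their values were seen. Replicate numbers did not pair samples. Alternatives changed the scaling, pseudocount, filter, libraries, block and neighbour distance. Sequences were not used here.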

Additional observations from a re-analysis of the deposited data

Results flagged for a closer look

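In 13 of the 147 genes chosen by the naming rules, the effect of losing Hst3 and Hst4 differed between strains with Rrp6 depleted (hst34rrp6 minus rrp6) and strains without that depletion (hst34 minus WT), by the interaction term of the limma fit. Most of the 147 were chosen by calls against WT, and some, such as ARO5, also by calls against rrp6 and hst34. The interaction uses the same libraries, so the number and direction of the differences among these genes were partly set by the choice. Over all genes as deposited, 61 had a higher effect with Rrp6 depleted (1.15%) and 2 a lower one (0.0378%). The median difference was then 0.17, so the scaling bears on this balance. Centred, 83 had a higher effect and 16 a lower one, with a median of −0.03. TDA6 had the largest difference of any gene called. It changed by 0.95 with Rrp6 depleted and −1.93 without, a difference of 2.88 ± 0.28 (adjusted p = 1.47e-20). HSP30 changed by −0.06 and −2.29 (2.22 ± 0.28, adjusted p = 1.37e-12), and YPS3 by 0.51 and −1.42 (1.93 ± 0.31, adjusted p = 4.41e-07). RGS2, a regulator of G-protein signalling, changed by 0.29 and −1.48 (1.77 ± 0.30, adjusted p = 8.89e-07). MEP2 changed by −0.14 and −1.67 (1.53 ± 0.31, adjusted p = 0.000205), ZRT1 by 0.56 and −0.75 (1.32 ± 0.31, adjusted p = 0.00374), and PHO5 by 0.75 and −0.47 (1.21 ± 0.31, adjusted p = 0.0125). ENO1 changed by 0.12 and −1.03 (1.15 ± 0.30, adjusted p = 0.0121), and the polyamine transporter gene TPO4 by 0.42 and −0.71 (1.13 ± 0.29, adjusted p = 0.00963). PRM7 changed by 0.26 and −0.84 (1.10 ± 0.31, adjusted p = 0.0407), and ARO5 by 1.32 and 0.27 (1.05 ± 0.30, adjusted p = 0.0445).

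Both genes called with a lower effect under Rrp6 depletion as deposited were among the 13. HSP82 changed by 0.39 with Rrp6 depleted and 1.52 without (−1.13 ± 0.31, adjusted p = 0.0295), and the alpha-factor gene MF(ALPHA)2 by −0.30 and 0.37 (−0.67 ± 0.16, adjusted p = 0.00322). MF(ALPHA)2 was near the floor, with 0 to 17 reads in a library, and its interval of 362 bp lies wholly within that of LIF1. With libraries centred 10 of the 13 differences were called, and PRM7 (adjusted p = 0.124), ARO5 (adjusted p = 0.112) and MF(ALPHA)2 (adjusted p = 0.258) were not.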

How the results depend on the processing

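The number of genes called in hst34rrp6 against WT was 843 as deposited. It became 2051 with each library centred on its median, 2058 centred on its trimmed mean, 462 without the lowest 25% of genes (219 higher, 243 lower), and 2016 with hst34rrp6 and WT libraries fitted alone and centred. The trimmed mean and the last setting were chosen after seeing the data. Leaving out 1 library gave 373 to 1436 genes as deposited. Centred, it gave 1338 to 2277: 1825 and 1822 without rrp6 replicate 1 or 2, 2275 without hst34 replicate 2, 1948 without WT replicate 1 and 1509 without WT replicate 2. Same-numbered libraries of hst34rrp6 and WT had a correlation of −0.0625 in their deviations, so the numbers do not pair them. With the replicate number as a block, the centred count was 1954, and as deposited it stayed within 1.5 times of 843. Convergent neighbours of small RNA genes called lower numbered 10, and 5 without the lowest 25% of genes, 6 with the replicate block, and 3 to 17 over the settings that leave out 1 library. Of 147 named genes, 6 lost their call with libraries centred and 17 with the replicate block. As deposited, 42 lost it without hst34rrp6 replicate 1, 39 without hst34rrp6 replicate 2, 32 without WT replicate 1, 40 without WT replicate 2, 17 without either rrp6 library and 0 without either hst34 library. In all 61 lost it in at least 1 of these, none of them with a change above 1.12 in size. The 30 largest changes were called in the same direction in all 779 values of theirs under other settings. These genes were chosen for their size, for calls on both scalings and for libraries that did not overlap. Their agreement was thus partly set by the choice. MF(ALPHA)2 was −0.06 without hst34rrp6 replicate 1 and centred. For each number that moved, the cause was not tested unless fewer genes or libraries entered the fit. The median level and summed signal kept their sign in every setting run. edgeR and DESeq2 were not run, because the values were deposited scaled by length. In the lowest quintile of genes a median gene held 114 reads in a library, and the pseudocount understates the size of changes there.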
